A study of Mus musculus with 12 samples.

Results

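Homologous recombination and the Fanconi anaemia pathway were followed through 34 genes in mouse B cells sorted by how often they had divided. The genes were chosen by name, and each matched 1 row among the 21761 genes of the deposited table. B220+ CD43- splenic B cells of naive mice were stained with CFSE or CTV, dyes diluted at each division, and given to uMT hosts, which make no B cells of their own. The hosts received LPS after a night of rest, and 3 days later the transferred cells were sorted from the spleen into 6 groups: undivided cells (Div0), cells that had divided 1, 3 or 5 times (Div1, Div3, Div5), and cells with at least 8 divisions that were CD138-negative (Div8neg) or CD138-positive (Div8pos). CD138, made by Sdc1, marks cells turning into plasma cells. There were 12 libraries, 1 per group from each of 2 hosts, 196 and 197. All carried the labels female, 8 weeks of age, LPS and strain B6.SJL-Ptprca Pepcb/BoyJ, while the series' design text gives C57/BL6J donors. No group went without LPS, so Div0 cells also came from LPS-treated hosts, and whether both hosts received cells of the same donors was not given.

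Homologous recombination repairs a broken chromosome by copying the intact sister, and so works mainly while DNA is being copied and afterwards. The MRE11, RAD50 and NBN complex and CtIP (Rbbp8) trim the broken ends, the kinases ATM and ATR signal the damage, BRCA1, BARD1, PALB2 and BRCA2 prepare the trimmed strand for strand exchange with the sister, and BLM, GEN1 and the MUS81-EME1 nuclease separate the joined molecules. The Fanconi anaemia core complex attaches ubiquitin to FANCD2 and FANCI at DNA crosslinks and stalled forks and feeds these lesions into the same repair. Activated B cells divide fast and also cut their own DNA during class switching, whose breaks are closed mainly by end joining.

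Promoter sequences are shown for 5 of the genes: 3 that hold a word of the E2F family, whose members drive genes of DNA synthesis, and the 2 genes with the largest changes of opposite direction at CD138. A RefSeq table of GRCm38.p6 promoters, spanning 250 bases before to 50 bases after each start, held 28 of the 34 genes. The words searched on both strands were TTTCCCGC, TTTGGCGC, TTTCGCGC and TTTGCCGC for E2F, TTTGAA and TTCGAA for the CHR element of genes expressed late in the cell cycle, and CCAAT for the CCAAT box. None of these words contains another. An E2F word stood in 5 of 28 promoters (17.9%: Bard1, Brca2, Chek2, Rad51c and Fancg), beside 2.6% of 27025 genes' promoters. A CHR word stood in 5 of 28 (17.9%), beside 21.7%, and CCAAT in 17 of 28 (60.7%), beside 41.1%. A match describes letters and is not a measured site. Sequences are 5′ to 3′ on the gene's strand with the matched word in capitals. The first 3 lines carry the E2F word (Bard1, chr1:71102923-71103222, minus strand; Rad51c, chr11:87404457-87404756, minus strand; Fancg, chr4:43010252-43010551, minus strand), and the last 2 the CCAAT word or its reverse complement (Atm, chr9:53536622-53536921, minus strand; Fancb, chrX:164980342-164980641, plus strand).
Bard1: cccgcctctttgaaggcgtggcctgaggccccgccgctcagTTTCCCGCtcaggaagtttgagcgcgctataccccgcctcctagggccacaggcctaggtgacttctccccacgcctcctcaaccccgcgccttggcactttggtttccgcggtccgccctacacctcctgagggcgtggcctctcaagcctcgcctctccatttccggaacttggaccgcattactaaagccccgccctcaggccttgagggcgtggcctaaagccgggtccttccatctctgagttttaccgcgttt
Rad51c: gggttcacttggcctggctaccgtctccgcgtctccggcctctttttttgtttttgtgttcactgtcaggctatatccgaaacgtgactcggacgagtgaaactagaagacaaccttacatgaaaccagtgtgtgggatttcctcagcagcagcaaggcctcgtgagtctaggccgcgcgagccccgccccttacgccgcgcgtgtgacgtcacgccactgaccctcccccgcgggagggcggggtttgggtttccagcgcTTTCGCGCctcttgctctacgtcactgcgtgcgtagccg
Fancg: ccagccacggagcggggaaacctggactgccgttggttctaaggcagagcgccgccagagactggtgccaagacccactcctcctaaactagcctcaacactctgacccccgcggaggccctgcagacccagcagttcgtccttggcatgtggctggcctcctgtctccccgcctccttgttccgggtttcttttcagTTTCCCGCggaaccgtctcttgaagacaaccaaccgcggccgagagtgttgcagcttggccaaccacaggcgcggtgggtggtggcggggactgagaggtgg
Atm: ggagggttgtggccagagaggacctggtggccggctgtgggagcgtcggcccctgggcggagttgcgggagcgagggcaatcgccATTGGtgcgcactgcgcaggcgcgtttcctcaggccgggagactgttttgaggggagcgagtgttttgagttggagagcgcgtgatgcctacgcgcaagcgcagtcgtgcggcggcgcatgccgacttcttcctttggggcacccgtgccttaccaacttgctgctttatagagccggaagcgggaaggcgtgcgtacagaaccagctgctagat
Fancb: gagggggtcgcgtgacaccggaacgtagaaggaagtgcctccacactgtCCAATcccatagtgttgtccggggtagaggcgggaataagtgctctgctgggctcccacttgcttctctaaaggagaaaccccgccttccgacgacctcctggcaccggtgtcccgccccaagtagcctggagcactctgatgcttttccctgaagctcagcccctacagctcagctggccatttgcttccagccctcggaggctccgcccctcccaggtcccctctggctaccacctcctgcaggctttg

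Gene counts per library ran from 11541406 to 14961666, and all 34 genes were among the 12026 genes that passed the filter on low counts. Libraries of the same group differed by more than counting noise (chi-square over degrees of freedom 2.415 to 4.208), so none was counted as a repeat of another. Sdc1 stood at 1.15 to 5.89 CPM (counts scaled to a fixed library total) in the 10 other libraries and at 331 and 309.5 in Div8pos. Of the B cell genes, Cd79a, a chain of the antigen receptor, was at 1314 and 1393 CPM in Div0, 898 and 912 in Div8neg and 303 and 307 in Div8pos. The B cell transcription factor Pax5 was at 381 and 381 CPM in Div0, 242 and 232 in Div8neg and 9.59 and 9.33 in Div8pos. Both were lowest in Div8pos. Summed marker lists of other cell types are given by the range within each group. The T cell list, with 6 of its 7 genes found, was at 43.3 to 45.5 CPM in Div0, 55.6 to 56.96 in Div1, 49.7 to 49.99 in Div3, 30.1 to 32.4 in Div5, 11.2 to 12.02 in Div8neg and 1.06 to 3.14 in Div8pos, while its defining genes Cd3d, Cd3e and Cd3g reached at most 0.537 CPM. The dendritic list, with 5 of 5 found, was at 93.4 to 104 in Div0, 297 to 298 in Div1, 456 to 465 in Div3, 417 to 446 in Div5, 189 to 206 in Div8neg and 19.6 to 23.1 in Div8pos. The macrophage and monocyte list, with 8 of 9 found, lay between 39.3 and 58.95 up to Div8neg and at 15.7 to 18.6 in Div8pos. These 3 lists were lowest in Div8pos, and none of their found genes was at 0 in every library. The neutrophil list, 5 of 6 found, ran from 1.82 to 53.2 CPM, with S100a8 and S100a9 higher in each library of host 197 than in the same group of host 196. The summed NK, erythroid and platelet lists stayed at or below 1.13, 18.2 and 13.3 CPM. The part of other cell types in the values below was not tested, and in sorted bulk samples a change in the mix of cells and a change within each cell cannot be told apart.

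Values are on 2 scales. CPM, from the deposited gene counts with TMM library sizes, gives a gene's share of the library. The deposited mRNAs per cell are length-corrected and scaled by the authors with synthetic spike-in RNAs added to 40000 cells, so they also rise when a cell holds more mRNA. In the sentences on libraries, host 196 comes first. A gene is called higher or lower where the Benjamini-Hochberg adjusted p, over all genes tested, was under 0.05 in edgeR's quasi-likelihood test (CPM scale) or in limma (per cell). An exact permutation test of 2 libraries against 2 cannot go below p = 0.333.

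Together the 34 genes made up few transcripts. Their summed level was 18.6 ± 2.19 mRNAs per cell in Div0 (SD, n = 2), 37.1 ± 10.3 in Div1, 33.98 ± 5.44 in Div3, 55.9 ± 4.41 in Div5, 90.8 ± 5.23 in Div8neg and 138.8 ± 13.7 in Div8pos. All mRNAs together went from 30440 ± 4349 per cell in Div0 to 162800 ± 15560 in Div8pos. As a share of all mRNAs the 34 genes were at 0.0614% ± 0.00163 in Div0, 0.0907% ± 0.000919 in Div8neg and 0.0853% ± 0.000212 in Div8pos. This length-corrected share was highest in Div8neg and the number per cell in Div8pos. Their summed CPM, not corrected for length, did not fall at CD138. It was 1639 and 1629 in Div8neg and 1681 and 1637 in Div8pos. In Div0, 27 of the 34 genes lay below 1 mRNA per cell, with a median of 0.370, and in Div8pos 1 did, with a median of 3.97. Mus81, a subunit of a junction-cutting nuclease, had the highest mean level per length in Div0 at 1.58 ± 0.218 mRNAs per cell, followed by Mre11a at 1.26 ± 0.212, Nbn at 1.24 ± 0.259 and Rad50 at 1.22 ± 0.151. In Div8pos Mre11a led at 9.16 ± 0.847, followed by Eme1 at 8.59 ± 0.823 and Rad50 at 7.66 ± 0.982. The strand exchange paralog Rad51b was lowest in both, at 0.0899 ± 0.0340 and 0.681 ± 0.0419. These SDs are between hosts and do not measure how genes differ within a library. Rad50 over Mre11a, for example, was 0.856 and 0.813 within the Div8pos libraries. The order of the genes was not tested.

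**Figure D1:**
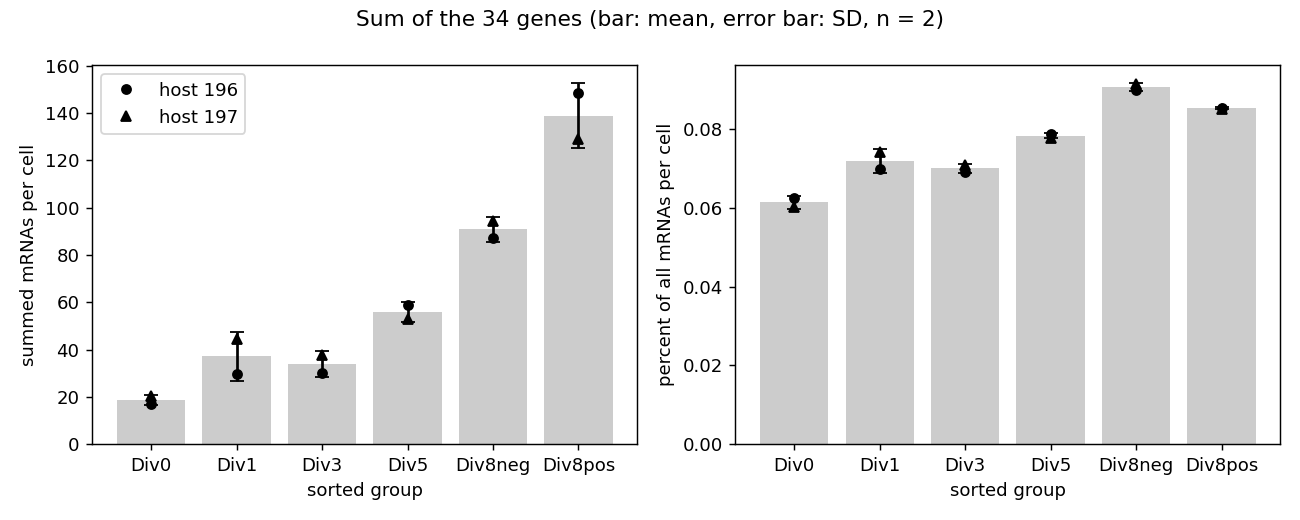
Summed level of the 34 genes in each sorted group, as mRNAs per cell (left) and as a percent of all mRNAs per cell (right); bars are means, error bars SD (n = 2) and points the libraries of host 196 and host 197. The sum per cell runs from 18.6 in Div0 to 138.8 in Div8pos, while the length-corrected share of all mRNAs is highest in Div8neg at 0.0907%.

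The genes that recognise and trim broken ends moved late or little. Mre11a, the nuclease of the end-binding complex, stood in CPM at 45.2 and 48.2 in Div0, 47.4 and 50.7 in Div1, 44.5 and 47.8 in Div3, 50.5 and 56.8 in Div5, 58.9 and 61.4 in Div8neg, and 73.2 and 72.3 in Div8pos. Its Div8neg libraries lay above every earlier one, and its Div8pos libraries above those. Rad50, the ATPase that holds ends together, was at 84.9 and 84.9 in Div0, 84.1 and 89.04 in Div1, 92.3 and 92.5 in Div3, 102 and 98.2 in Div5, 116 and 116 in Div8neg, and 117 and 109.8 in Div8pos. Levels of Rad50 were higher in Div8neg than in any library of Div0 to Div5 and overlapped between Div8neg and Div8pos. Nbn, the third subunit and the one that recruits ATM, stayed between 33.5 and 41.3 CPM: 35.7 and 40.4 in Div0, 36.8 and 37.9 in Div1, 36.2 and 34.5 in Div3, 33.95 and 33.5 in Div5, 37.1 and 36.9 in Div8neg, and 41.3 and 41.2 in Div8pos. It was called in none of the 6 comparisons. Rbbp8 (CtIP), which starts end trimming, was at 30.4 and 31.1 in Div0, 31.6 and 34.04 in Div1, 35.9 and 35.97 in Div3, 45.3 and 47.7 in Div5, 59.4 and 61.1 in Div8neg, and 72.3 and 71.8 in Div8pos. Successive groups of Rbbp8 did not overlap.

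The 4 kinases followed different courses. Atm (Entrez Gene 11920), the kinase activated by double-strand breaks, stood in CPM at 189.7 and 175 in Div0, 229.7 and 228 in Div1, 235 and 199 in Div3, 188 and 170.2 in Div5, 156 and 159 in Div8neg, and 45.01 and 50.8 in Div8pos. Its level was highest in Div1 and Div3, and both Div8pos libraries lay far below the lowest other library, at 156.4 CPM. Atr, the kinase activated by single-stranded DNA at stalled forks, was at 73.2 and 61.05 in Div0, 84.2 and 66.5 in Div1, 74.5 and 62.7 in Div3, 65.7 and 59.9 in Div5, 54.96 and 49.7 in Div8neg, and 66.4 and 69.03 in Div8pos. Atr was lowest in Div8neg, and its Div8pos libraries overlapped those of Div0. Chek1, which carries the ATR signal, was at 17.3 and 17.8 in Div0, 23.8 and 22.96 in Div1, 23.1 and 22.2 in Div3, 26.9 and 31.2 in Div5, 42.6 and 41.6 in Div8neg, and 41.3 and 41.1 in Div8pos. Chek1 rose in steps at Div1, Div5 and Div8neg, and its Div8pos libraries lay just below those of Div8neg. Chek2, which carries the ATM signal, was at 21.6 and 20.01 in Div0, 25.3 and 26.2 in Div1, 27.8 and 25.6 in Div3, 30.5 and 30.2 in Div5, 32.4 and 29.4 in Div8neg, and 29.4 and 33.4 in Div8pos. Its groups from Div5 on overlapped.

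BRCA1 and its partners rose with division. Brca1 (Entrez Gene 12189), a ubiquitin ligase that promotes end trimming, stood in CPM at 35.9 and 40.2 in Div0, 47.3 and 49.9 in Div1, 50.6 and 53.9 in Div3, 67.9 and 71.9 in Div5, 103 and 109 in Div8neg, and 136 and 129 in Div8pos. Each group of Brca1 lay above the one before without overlap. Its obligate partner Bard1 was at 24.3 and 20.4 in Div0, 34.4 and 34.2 in Div1, 35.05 and 37.3 in Div3, 42.4 and 45.6 in Div5, 57.3 and 53.05 in Div8neg, and 54.5 and 54.9 in Div8pos, levelling off from Div8neg to Div8pos. Brip1, a helicase bound by BRCA1, was at 20.99 and 20.3 in Div0, 30.1 and 33.98 in Div1, 30.8 and 33.7 in Div3, 41.9 and 41.9 in Div5, 53.4 and 53.3 in Div8neg, and 47.6 and 47.9 in Div8pos. Brip1 was highest in Div8neg. Palb2, which bridges BRCA1 to BRCA2, was at 15.5 and 14.4 in Div0, 19.1 and 18.4 in Div1, 14.8 and 14.6 in Div3, 19.6 and 19.3 in Div5, 25.4 and 26.8 in Div8neg, and 25.3 and 25.01 in Div8pos. The Div3 libraries of Palb2 lay within the range of Div0, below Div1 and Div5. Brca2, which acts at the step before strand exchange, was at 34.3 and 26.5 in Div0, 35.6 and 40.1 in Div1, 34.4 and 32.3 in Div3, 39.8 and 36.5 in Div5, 48.8 and 45.2 in Div8neg, and 59.3 and 56.00 in Div8pos. The Div0 libraries of Brca2 differed from each other by more than any later pair did.

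The strand exchange group holds 7 genes. Its 2 translocases both had less CPM in Div8pos than in Div8neg, and only Rad54b was called lower there. Rad51ap1, which helps strand invasion, was in CPM at 19.1 and 20.3 in Div0, 22.3 and 28.1 in Div1, 24.9 and 26.2 in Div3, 31.04 and 33.97 in Div5, 44.01 and 46.9 in Div8neg, and 49.97 and 55.1 in Div8pos. The DNA translocase Rad54l was at 27.02 and 28.04 in Div0, 32.6 and 42.4 in Div1, 33.7 and 38.4 in Div3, 48.02 and 54.5 in Div5, 73.7 and 72.01 in Div8neg, and 69.96 and 65.5 in Div8pos. Its relative Rad54b was at 14.8 and 15.9 in Div0, 22.4 and 23.6 in Div1, 20.6 and 24.9 in Div3, 31.8 and 33.2 in Div5, 38.99 and 35.5 in Div8neg, and 25.6 and 28.7 in Div8pos. Rad54b was lower in Div8pos than in either library of Div5 or Div8neg, while Rad54l stayed above Div5. Rad51c, the paralog shared by both paralog complexes, was at 10.1 and 10.4 in Div0, 11.7 and 11.3 in Div1, 9.30 and 11.6 in Div3, 14.1 and 15.8 in Div5, 19.2 and 18.3 in Div8neg, and 14.5 and 13.6 in Div8pos. In Div8pos Rad51c was back near its Div5 level. Xrcc2, another paralog, was at 12.1 and 10.9 in Div0, 24.3 and 23.5 in Div8neg and 38.5 and 33.1 in Div8pos. The paralog Xrcc3 ranged from 21.6 to 31.3 CPM over the 12 libraries, and Rad51b from 2.53 to 6.48. Part of the Rad54b exon bases, 35.8%, is shared with Fsbp on the same strand, so reads there cannot be assigned to either.

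Genes of the Fanconi core complex moved in different directions. Fanca, a core subunit, was in CPM at 39.5 and 38.5 in Div0, 45.1 and 46.5 in Div1, 45.6 and 48.4 in Div3, 51.4 and 52.8 in Div5, 58.5 and 58.9 in Div8neg, and 68.2 and 59.4 in Div8pos, and its Div8pos libraries differed between hosts. Fancb (Entrez Gene 237211), the X-linked subunit that works beside the ubiquitin ligase FANCL, was at 9.01 and 6.67 in Div0, 9.40 and 9.80 in Div1, 11.1 and 9.07 in Div3, 11.2 and 9.05 in Div5, 15.3 and 15.9 in Div8neg, and 34.6 and 42.2 in Div8pos. Both Div8pos libraries of Fancb lay above 30 CPM and all 10 others below 16. Fancl, the ligase itself, was at 16.2 and 15.2 in Div0, 17.02 and 14.4 in Div1, 15.4 and 13.3 in Div3, 17.4 and 17.9 in Div5, 18.1 and 17.2 in Div8neg, and 14.8 and 13.7 in Div8pos. Fancl ended slightly below Div8neg and within the range of Div3. Fancc, a core subunit, was at 26.3 and 24.9 in Div0, 26.2 and 25.8 in Div1, 26.98 and 25.7 in Div3, 22.9 and 21.5 in Div5, 21.8 and 18.6 in Div8neg, and 25.98 and 26.4 in Div8pos, with its lowest mean in Div8neg. Fance, which links the core to FANCD2, was at 25.8 and 26.1 in Div0, 25.3 and 24.2 in Div1, 22.4 and 26.03 in Div3, 21.1 and 21.6 in Div5, 23.6 and 23.5 in Div8neg, and 18.6 and 18.9 in Div8pos. Fancg, a scaffold subunit, was at 42.95 and 42.2 in Div0, 45.6 and 48.8 in Div1, 41.7 and 47.4 in Div3, 44.1 and 43.6 in Div5, 44.99 and 42.6 in Div8neg, and 32.8 and 30.99 in Div8pos. Fance and Fancg were lowest in Div8pos. Fancm, the translocase that brings the core to DNA, ranged from 34.5 CPM in a Div0 library to 77.8 in a Div8pos library, and Fancf, an adaptor, from 3.00 to 7.12. Of the Fancf exon bases, 15% overlap Gas2 on the other strand. Gas2 was at 3.126 and 2.565 CPM in Div0 and at 5.597 and 5.547 in Div8pos, and its part in the Fancf values was not tested. The pair that receives ubiquitin was higher in Div8neg than in Div0. Fancd2 was at 27.6 and 27.02 in Div0, 35.9 and 44.5 in Div1, 39.9 and 42.2 in Div3, 49.7 and 51.1 in Div5, 65.6 and 68.2 in Div8neg, and 62.9 and 56.4 in Div8pos. Fanci was at 29.6 and 28.9 in Div0, 31.00 and 37.3 in Div1, 29.9 and 30.9 in Div3, 39.98 and 42.8 in Div5, 54.9 and 54.4 in Div8neg, and 64.2 and 55.5 in Div8pos. In Div8pos Fancd2 lay below both Div8neg libraries and Fanci above both, and neither was called.

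Of the 4 genes of junction processing, 3 were highest and 1 was lowest in Div8pos. The helicase Blm, which dissolves double junctions, was in CPM at 23.7 and 24.03 in Div0, 30.1 and 30.7 in Div1, 32.4 and 27.2 in Div3, 43.9 and 45.2 in Div5, 65.4 and 63.7 in Div8neg, and 104 and 92.3 in Div8pos. Eme1, a partner subunit of the MUS81 nuclease, was at 14.1 and 14.02 in Div0, 21.7 and 24.6 in Div1, 21.1 and 27.2 in Div3, 34.02 and 33.5 in Div5, 41.01 and 45.4 in Div8neg, and 51.01 and 50.1 in Div8pos. The resolvase Gen1 was at 15.04 and 12.9 in Div0, 23.8 and 24.98 in Div1, 25.4 and 24.4 in Div3, 33.95 and 33.6 in Div5, 35.9 and 36.1 in Div8neg, and 49.3 and 44.1 in Div8pos. Blm, Eme1 and Gen1 were at their highest in Div8pos. Mus81, the nuclease subunit, was at 44.7 and 45.7 in Div0, 51.4 and 54.6 in Div1, 53.4 and 54.8 in Div3, 54.6 and 50.5 in Div5, 43.3 and 43.95 in Div8neg, and 27.4 and 29.9 in Div8pos. Mus81 was highest in Div1 to Div5 and lowest in Div8pos.

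**Figure D2:**
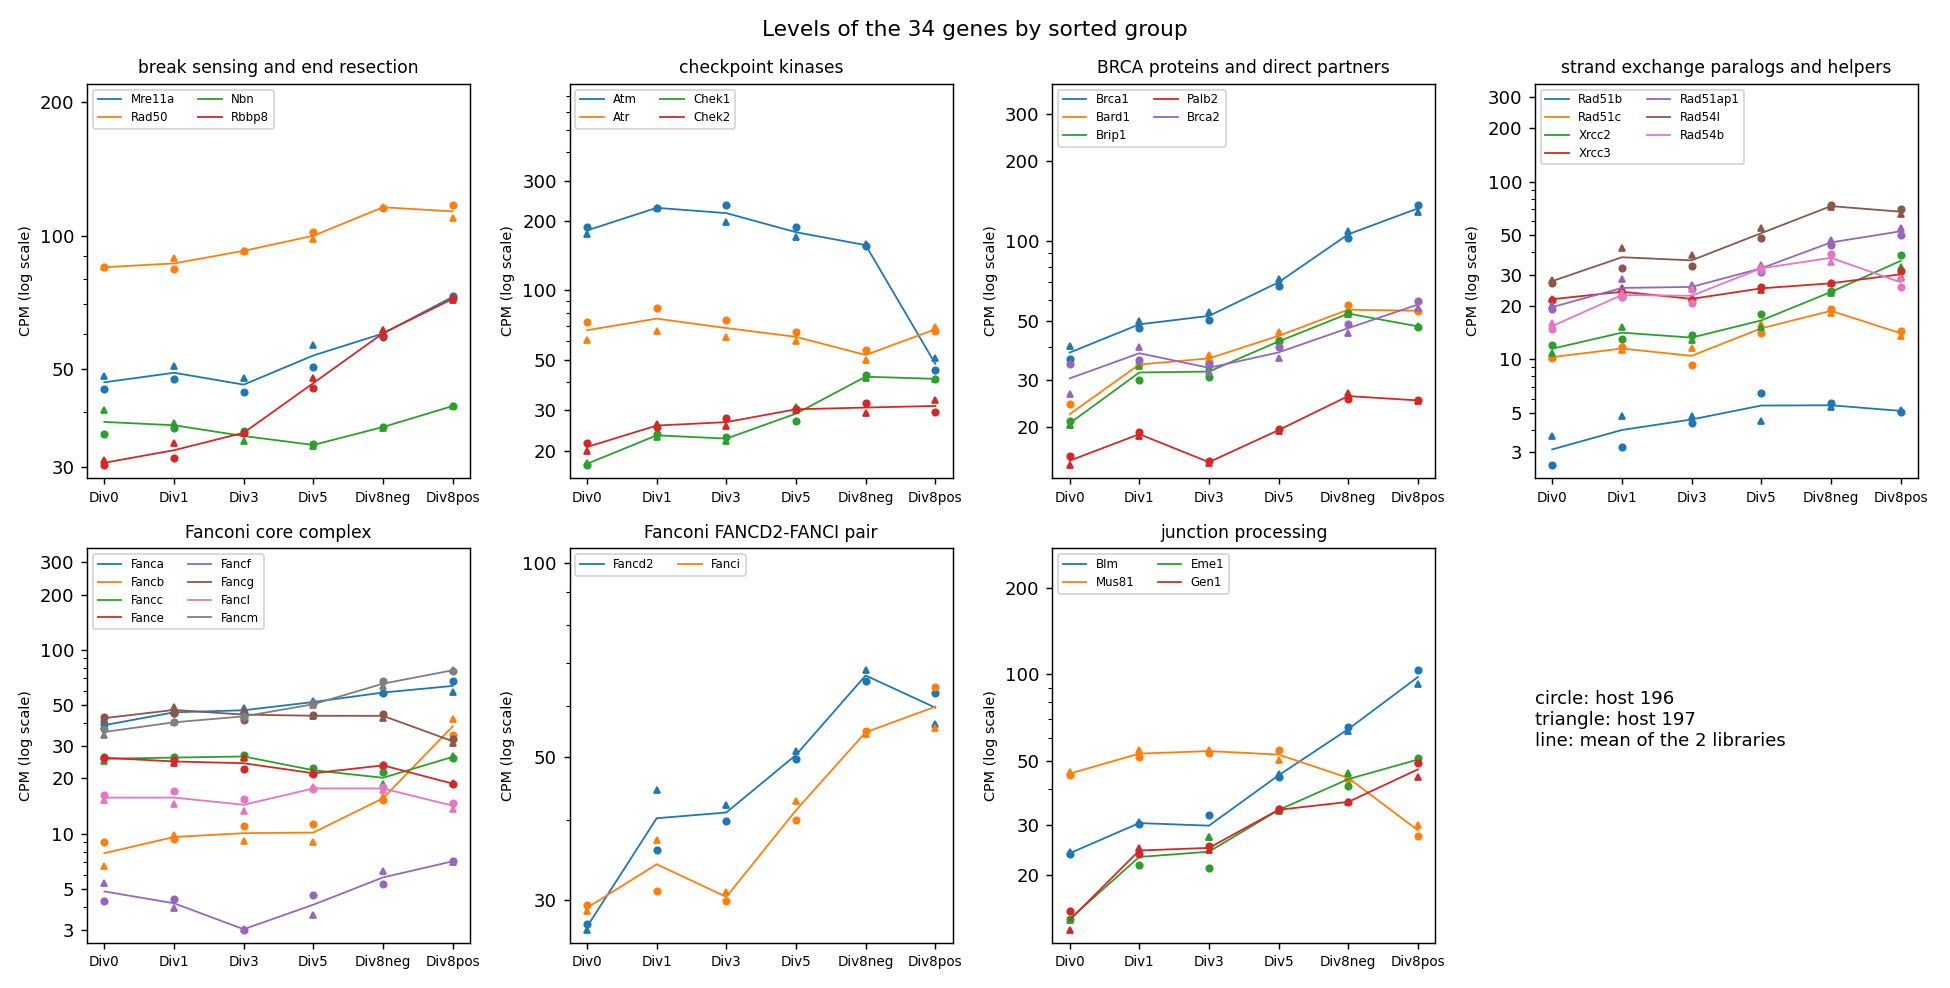
Levels of the 34 genes in CPM (log axis) by sorted group, 1 panel per role; points are the libraries of the 2 hosts and lines join the group means. Most lines climb from Div0 to Div8neg, and Atm drops to 45.01 and 50.8 CPM and Mus81 to 27.4 and 29.9 in Div8pos while Fancb climbs to 34.6 and 42.2.

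At the first division, 14 of the 34 genes were higher in Div1 than in Div0 and none lower, on the CPM scale. Over all genes tested, 5.44% were higher and 3.91% lower. The genes that rose were all 4 of junction processing, 4 of the 5 BRCA genes, 3 of the 7 strand exchange genes, Atm and Chek1, and Fancd2. Gen1 rose 1.74-fold (log2 0.80, SE 0.10, adjusted p = 9.25e-05), Eme1 1.65-fold (log2 0.72, SE 0.12, adjusted p = 0.00108), Brip1 1.56-fold (log2 0.64, SE 0.09, adjusted p = 0.000153), Bard1 1.53-fold (log2 0.62, SE 0.09, adjusted p = 0.000368) and Rad54b 1.50-fold (log2 0.59, SE 0.11, adjusted p = 0.00302). None of the 8 core complex genes and none of the 4 break-sensing genes passed edgeR's test without a host block. At an unadjusted p under 0.05, 2 core genes and 0 break-sensing genes were higher, and DESeq2 called 10 of the 34 genes in all. Brca2 (log2 0.31, adjusted p = 0.0816), Chek2 (log2 0.31, adjusted p = 0.0534) and the core gene Fanca (log2 0.23, adjusted p = 0.0705) passed as higher once host was fitted as a block (Brca2 log2 0.32, adjusted p = 0.0247; Chek2 log2 0.31, adjusted p = 0.0316; Fanca log2 0.23, adjusted p = 0.0463). The median log2 change of the 34 genes was 0.29, beside -0.01 for all genes. Per cell, 33 of 34 were higher, all but Fancf (log2 0.38, adjusted p = 0.0861), where 77% of all genes were higher and 0.133% lower, and the median was 0.83 beside 0.63. On the CPM scale 8 genes were called when the Div0 library of host 196 was left out, 8 when that of host 197 was, and 7 when the Div1 library of host 197 was. Leaving out the first or the last of these took the per-cell count to 11. Of the 14 calls, Gen1, Eme1, Brip1, Bard1, Rad54b and Fancd2 passed with any 1 of the 12 libraries left out. Palb2 failed in 8 of these 12 fits with a highest adjusted p of 0.211, Mus81 in 7 (0.244), Rad51ap1 in 7 (0.439) and Blm in 4 (0.129). Atm and Rad54l failed in 3 each, and Chek1 and Brca1 in 2 each. In the same comparison the mitosis list had 16 of 16 higher and 0 lower and the S phase list 4 of 17 higher and 1 lower; their part in the result was not tested.

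Between the first and the third division no change passed the tests. None of the 34 genes was called in Div3 against Div1 by edgeR, DESeq2 or limma, where edgeR called 3.42% of all genes and limma 0.516%. At an unadjusted p under 0.05 edgeR gave 0 higher and 2 lower, and limma 0 higher and 0 lower. With host as a block 1 gene passed, Palb2 (log2 -0.35, adjusted p = 0.0307), which was log2 -0.35, adjusted p = 0.055 without it. The median log2 change was -0.02 on the CPM scale and -0.10 per cell.

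Between the third and the fifth division 17 of the 34 genes rose and 1 fell, where 14.2% of all genes were higher and 12.4% lower. The rise took in 4 of 5 BRCA genes, 4 of 7 strand exchange genes, 3 of 4 junction genes, both Fancd2 and Fanci, 2 of 4 break-sensing genes, Chek1, and from the core complex Fancm alone of 8 in the fit without a host block. Blm rose 1.50-fold (log2 0.59, SE 0.09, adjusted p = 0.000242), Rad54b 1.42-fold (log2 0.51, SE 0.10, adjusted p = 0.00184), Rad51c 1.42-fold (log2 0.51, SE 0.12, adjusted p = 0.00803), Rad54l 1.42-fold (log2 0.50, SE 0.10, adjusted p = 0.00271) and Eme1 1.39-fold (log2 0.48, SE 0.10, adjusted p = 0.00403). Of these, Rad51c did not pass without Div3 of host 196 (log2 0.36, adjusted p = 0.106) or without Div5 of host 197 (log2 0.42, adjusted p = 0.0971). Eme1 did not pass without Div3 of host 196 (log2 0.31, adjusted p = 0.0608), nor Rad54l without Div5 of host 197 (log2 0.41, adjusted p = 0.0503). Atm was the gene that fell in that fit, 1.21-fold (log2 -0.27, SE 0.08, adjusted p = 0.0161), and it did not pass without Div3 of host 196 (log2 -0.15, adjusted p = 0.223) or without Div5 of host 197 (log2 -0.21, adjusted p = 0.185). Per cell Atm was not lower (log2 0.26, adjusted p = 0.305). Chek1, Bard1, Rad51ap1, Mre11a, Fancd2 and Fancm each lost their call in 1 to 4 of the 12 fits that left out a library, Fancm in 4 (highest adjusted p = 0.123). With host as a block, Xrcc2 (log2 0.32, adjusted p = 0.0352) and Fancl (log2 0.30, adjusted p = 0.0289) passed as higher and Fancc (log2 -0.25, adjusted p = 0.0287) as lower, where none of the 3 passed without it (adjusted p = 0.0646, 0.0658 and 0.0567). The count of 18 called genes was 10 without Div3 of host 196 and 9 without Div5 of host 197. Per cell 26 rose and 0 fell, where 42.7% of all genes were higher and 0.416% lower, and the median was 0.75 beside 0.47; without Div3 of host 196 the per-cell count was 1, without Div5 of host 196 3 and without Div5 of host 197 15. All 17 S phase genes and all 16 mitosis genes were higher in this comparison as well; their part was not tested.

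From Div5 to Div8neg 19 genes rose and 1 fell, where 26.9% of all genes were higher and 26.6% lower. All 5 BRCA genes rose, as did 4 of 7 strand exchange genes, Fancd2 and Fanci, 3 of 8 core genes, 2 of 4 junction genes, 2 of 4 break-sensing genes and Chek1. Fancb rose 1.53-fold (log2 0.61, SE 0.16, adjusted p = 0.00383), Brca1 1.51-fold (log2 0.60, SE 0.07, adjusted p = 3.25e-06), Chek1 1.45-fold (log2 0.54, SE 0.08, adjusted p = 4.42e-05), Blm 1.45-fold (log2 0.54, SE 0.08, adjusted p = 4.49e-05) and Xrcc2 1.44-fold (log2 0.53, SE 0.12, adjusted p = 0.00119). Fancb did not pass without Div5 of host 197 (log2 0.47, adjusted p = 0.0536). Mus81 fell 1.21-fold (log2 -0.27, SE 0.07, adjusted p = 0.00397), and did not pass without Div5 of host 196 (log2 -0.21, adjusted p = 0.0625). Per cell Mus81 was log2 0.21, adjusted p = 0.441. Fancf, 1 of the 3 core genes (log2 0.48, adjusted p = 0.0476), did not pass in 9 of the 12 fits that left out a library (highest adjusted p = 0.285). Rad51c failed in 3 of them, Brca2 in 2 and Eme1 in 1. Atm (log2 -0.19, adjusted p = 0.054) and Atr (log2 -0.26, adjusted p = 0.0666) passed as lower with host as a block (Atm log2 -0.19, adjusted p = 0.0207; Atr log2 -0.26, adjusted p = 0.00695), as did Mre11a as higher (log2 0.17, adjusted p = 0.0299), which was log2 0.17, adjusted p = 0.0652 without it. Rad54b and Fanca, at log2 0.20, adjusted p = 0.0902 and log2 0.17, adjusted p = 0.0539, passed as higher with the block (log2 0.20, adjusted p = 0.049; log2 0.17, adjusted p = 0.0419). Per cell 26 genes rose and 0 fell, where 42.3% of all genes were higher and 3.56% lower; the count was 11 without Div5 of host 197 and 9 without Div8neg of host 197. All 17 S phase genes were higher in this comparison too, and the mitosis list had 14 of 16 higher and 1 lower; their part was not tested.

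Over the whole course, Div8neg against Div0, 25 of the 34 genes were higher and 3 lower, where 35.3% of all genes were higher and 35.7% lower. All 5 BRCA genes, all 7 strand exchange genes, Fancd2 and Fanci were higher, with 3 of 4 junction genes, 3 of 4 break-sensing genes, Chek1 and Chek2, and 3 of 8 core genes (Fanca, Fancb, Fancm). Of the 7 strand exchange genes, Rad51b, which had few counts, lost its call in 1 of the 12 fits that left out a library. Eme1 was 3.06-fold (log2 1.61, SE 0.11, adjusted p = 3.9e-09) higher, Brca1 2.79-fold (log2 1.48, SE 0.07, adjusted p = 8.59e-11), Blm 2.71-fold (log2 1.44, SE 0.09, adjusted p = 8.67e-10), Rad54l 2.65-fold (log2 1.40, SE 0.11, adjusted p = 9.91e-09) and Brip1 2.58-fold (log2 1.37, SE 0.08, adjusted p = 6.21e-10). The 3 lower genes changed less: Atr was 1.28-fold (log2 -0.36, SE 0.12, adjusted p = 0.0107) lower, Fancc 1.27-fold (log2 -0.34, SE 0.09, adjusted p = 0.00395) and Atm 1.16-fold (log2 -0.21, SE 0.08, adjusted p = 0.0232). Atr did not pass without Div0 of host 196 (log2 -0.23, adjusted p = 0.165) or Div8neg of host 197 (log2 -0.29, adjusted p = 0.0853), Fancc without Div8neg of host 197 (log2 -0.24, adjusted p = 0.0645), and Atm without Div0 of host 196 (log2 -0.16, adjusted p = 0.165) or either Div8neg library (log2 -0.20, adjusted p = 0.104; log2 -0.23, adjusted p = 0.0638). The 6 genes not called were Nbn (log2 -0.04, adjusted p = 0.687), Mus81 (log2 -0.05, adjusted p = 0.546), Fance (log2 -0.14, adjusted p = 0.181), Fancf (log2 0.26, adjusted p = 0.241), Fancg (log2 0.04, adjusted p = 0.641) and Fancl (log2 0.16, adjusted p = 0.206). Per cell all 34 were higher, where 88.4% of all genes were and 1.65% were lower, with a median of 2.15 beside 1.41 for all genes. With library sizes set by the spike-ins, edgeR also gave 34 higher and 0 lower, so the 3 lower calls describe shares of the library and not numbers per cell.

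**Figure D3:**
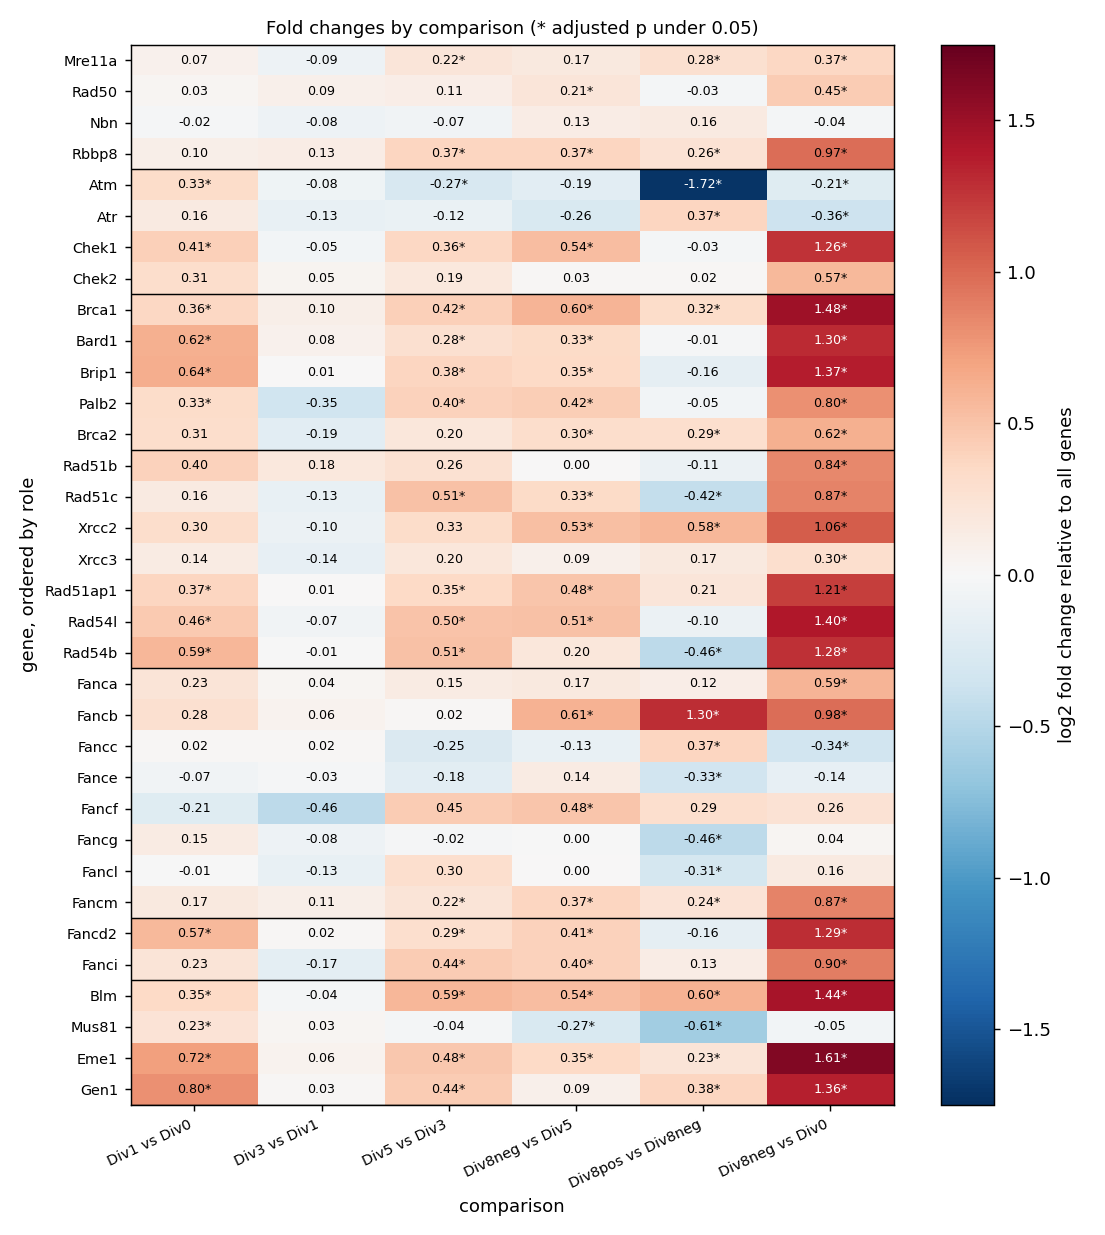
Log2 fold changes of the 34 genes on the CPM scale (colour) in the 6 comparisons, genes ordered by role; a star marks an adjusted p under 0.05 in edgeR. The Div3 against Div1 column holds no star, and in Div8pos against Div8neg Atm at log2 -1.72 and Fancb at 1.30 are the extremes.

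At CD138 genes were called in both directions, as they were over all genes. Of the 34, 12 were higher and 7 lower in Div8pos than in Div8neg on the CPM scale, shares of 35.3% and 20.6%, where 36.7% of all genes were higher and 35.4% lower. The share higher was near that of all genes and the share lower was below it, a difference that was not tested. Fancb was 2.46-fold (log2 1.30, SE 0.13, adjusted p = 2.98e-07) higher, Blm 1.52-fold (log2 0.60, SE 0.07, adjusted p = 2.36e-06), Xrcc2 1.50-fold (log2 0.58, SE 0.10, adjusted p = 0.000127), Gen1 1.30-fold (log2 0.38, SE 0.08, adjusted p = 0.000555) and Fancc 1.30-fold (log2 0.37, SE 0.09, adjusted p = 0.00202). Atm was 3.29-fold (log2 -1.72, SE 0.09, adjusted p = 4.55e-11) lower, and 1264 of the 12026 genes tested (10.51%) had a lower fold change. Mus81 was 1.52-fold (log2 -0.61, SE 0.08, adjusted p = 2.6e-06) lower, Rad54b 1.38-fold (log2 -0.46, SE 0.10, adjusted p = 0.000548), Fancg 1.37-fold (log2 -0.46, SE 0.08, adjusted p = 8.87e-05) and Rad51c 1.33-fold (log2 -0.42, SE 0.12, adjusted p = 0.00513). The remaining lower calls were Fance, 1.26-fold (adjusted p = 0.00524), and Fancl, 1.24-fold (adjusted p = 0.0259). By role, the core complex had 3 genes higher (Fancb, Fancc, Fancm) and 3 lower (Fance, Fancg, Fancl). The strand exchange genes had 1 higher and 2 lower, and junction processing 3 higher and 1 lower. These small counts were not tested against the shares of all genes. Fancl did not pass without Div8neg of host 196 (log2 -0.26, adjusted p = 0.135) or without Div8pos of host 197 (log2 -0.24, adjusted p = 0.147), and DESeq2 did not call it (log2 -0.28, adjusted p = 0.148), Rad51c (log2 -0.39, adjusted p = 0.0529) or Fance (log2 -0.30, adjusted p = 0.0626). Eme1, called as 1.17-fold (adjusted p = 0.0414) higher, did not pass without Div8neg of host 196 (log2 0.17, adjusted p = 0.224), without either Div8pos library (log2 0.23, adjusted p = 0.111; log2 0.25, adjusted p = 0.0756) or in DESeq2 (log2 0.26, adjusted p = 0.0749). Brca2, called as 1.23-fold (adjusted p = 0.0125) higher, did not pass without Div8neg of host 197 (log2 0.24, adjusted p = 0.0898) or without Div8pos of host 196 (log2 0.26, adjusted p = 0.0744). With host as a block, Brip1 passed as lower (log2 -0.16, adjusted p = 0.0406) and Rad51ap1 as higher (log2 0.21, adjusted p = 0.011). Of the exon bases of Fancl, 13.7% overlap Vrk2 on the other strand, which was itself 4.89-fold (adjusted p = 6.79e-11) lower; since the use of strand in counting was not stated, their reads cannot be told apart there.

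Per cell, most of the lower calls at CD138 were not seen. On that scale 23 genes were higher and 1 lower, where 52.1% of all genes were higher and 16.3% lower, and with spike-in library sizes edgeR gave 24 higher and 1 lower. Atm was the 1 lower gene, at 3.19 and 3.51 mRNAs per cell in Div8neg and 1.48 and 1.49 in Div8pos (log2 -1.12, adjusted p = 7.91e-06, limma). Mus81 was at 4.64 and 5.11 mRNAs per cell in Div8neg and 4.74 and 4.60 in Div8pos (log2 -0.06, adjusted p = 0.824). Rad51c, Rad54b, Fance, Fancg and Fancl, lower as shares, had per-cell changes of log2 0.12, 0.08, 0.21, 0.09 and 0.23, none called. Fancb was at 1.28 and 1.45 mRNAs per cell in Div8neg and 4.69 and 5.08 in Div8pos (log2 1.77, adjusted p = 8.24e-12). The per-cell count was 13 without Div8neg of host 196 and 14 without Div8pos of host 196. Plasma cell markers rose in the same comparison, from 651.7 to 786 CPM summed in Div8neg to between 4796 and 4962 in Div8pos; the sort itself separates these groups by CD138.

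**Figure D4:**
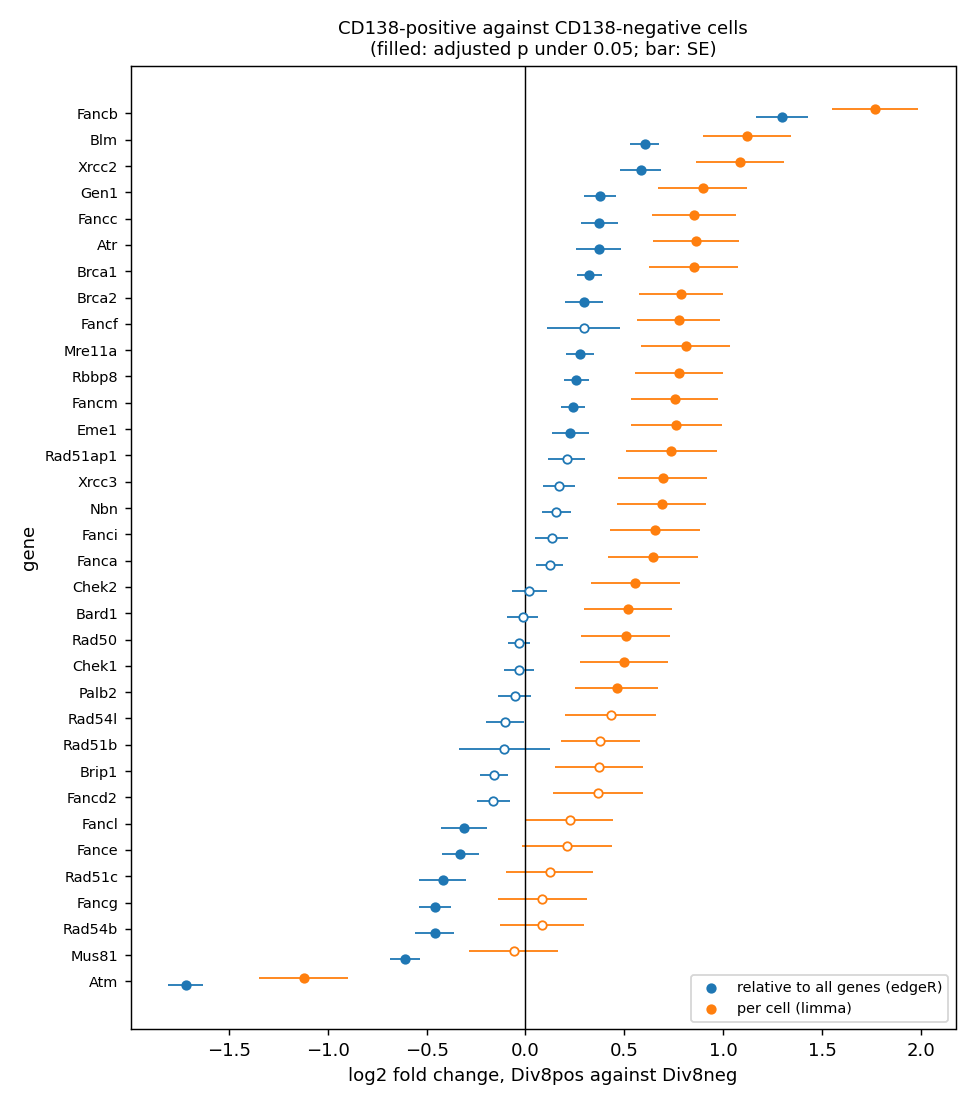
Log2 fold change of each of the 34 genes in Div8pos against Div8neg, relative to all genes (edgeR) and per cell (limma); bars are SE and filled points have an adjusted p under 0.05. Atm is lower on both scales, at -1.72 and -1.12, while Mus81 is lower only as a share of the library in these fits.

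Among genes whose products work as partners, some pairs changed their ratio and others did not move far. Ratios were taken within each library from mRNAs per cell, so that library scaling cancels, and are descriptions with no test. Eme1 over Mus81 was 0.329 and 0.320 in Div0, 0.439 and 0.469 in Div1, 0.411 and 0.515 in Div3, 0.648 and 0.689 in Div5, 0.985 and 1.07 in Div8neg and 1.93 and 1.74 in Div8pos. The nuclease pair thus went from an excess of Mus81 transcripts to an excess of Eme1 transcripts. Of the Eme1 exon bases, 8% overlap Lrrc59 and 2.72% Mrpl27, and of the Mus81 exon bases 4.85% overlap Efemp2. All lie on the other strand, and the use of strand in counting was not stated. Atm over Atr lay between 2.54 and 3.36 in the 10 libraries up to Div8neg and at 0.664 and 0.721 in Div8pos. Fancb over Fancl lay between 0.349 and 0.736 up to Div8neg and at 1.86 and 2.46 in Div8pos. In both pairs the gene with more transcripts was the other one in Div8pos. Of the Fancl exon bases, 13.7% overlap Vrk2 on the other strand, which was 4.89-fold lower in Div8pos than in Div8neg. The part of Vrk2 in the Fancl values was not tested. Brca1 over Bard1 was 0.975 and 1.30 in Div0, 1.19 and 1.35 in Div8neg and 1.65 and 1.55 in Div8pos, with the Div0 libraries apart from each other. Nbn over Mre11a went from 0.952 and 1.01 in Div0 to 0.759 and 0.725 in Div8neg and 0.681 and 0.687 in Div8pos. Rad50 over Mre11a, in the same complex, lay between 0.926 and 1.11 up to Div8neg and at 0.856 and 0.813 in Div8pos. Brca2 over Palb2 stayed between 0.801 and 1.12 in all 12 libraries. Fancd2 over Fanci was 0.765 and 0.766 in Div0, 1.09 and 1.12 in Div3 and 0.802 and 0.832 in Div8pos, and 16% of the Fanci exon bases overlap Polg on the other strand.

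**Figure D5:**
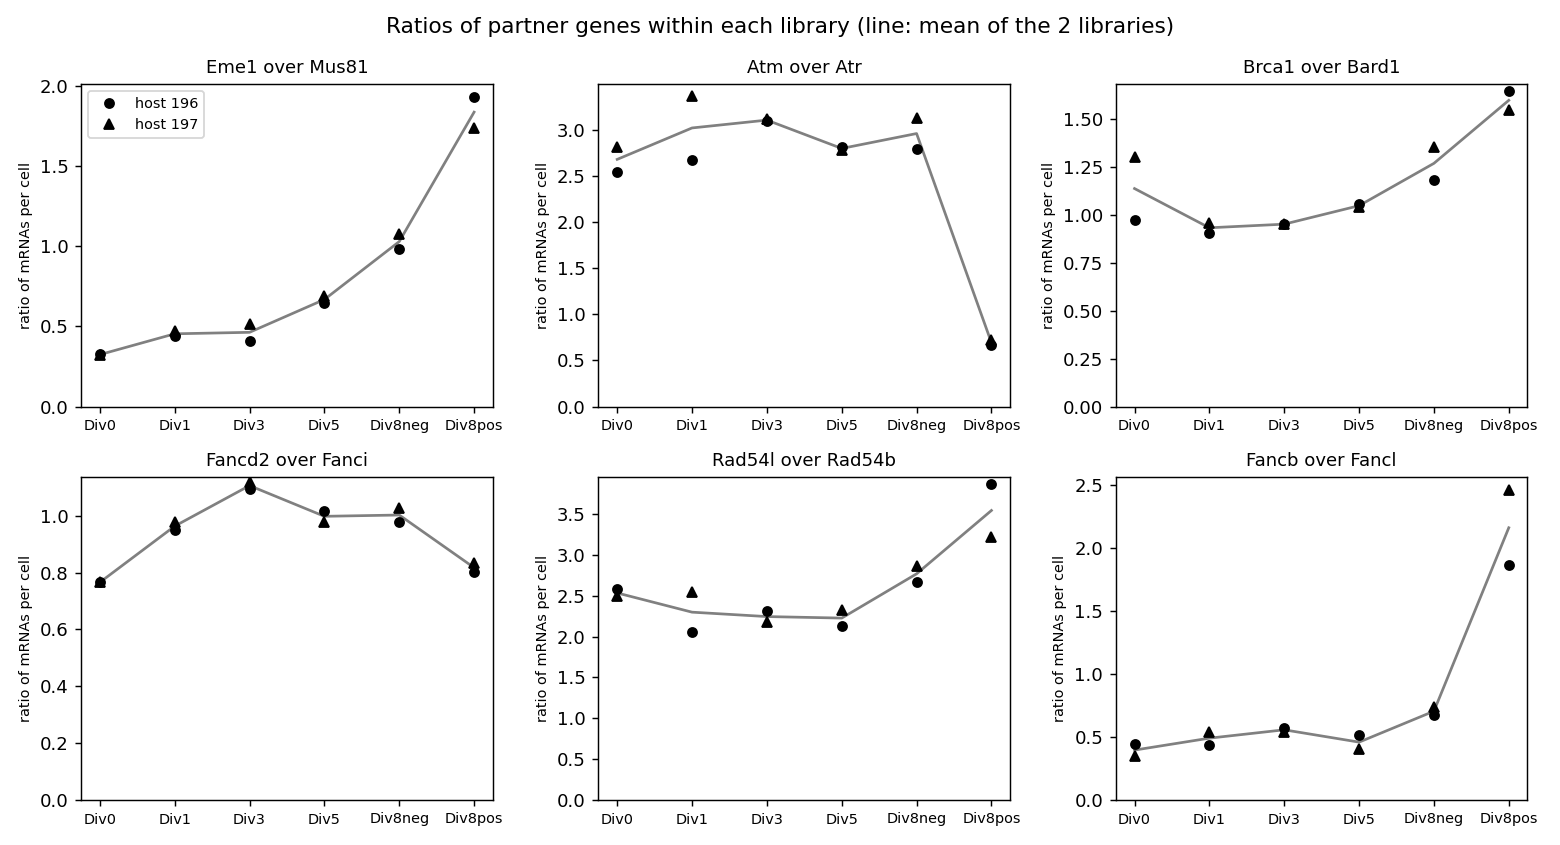
Ratios of mRNAs per cell between partner genes within each library (circles host 196, triangles host 197, line the mean of the 2 libraries). Eme1 over Mus81 climbs from 0.329 and 0.320 in Div0 to 1.93 and 1.74 in Div8pos, and Atm over Atr falls to 0.664 and 0.721 in Div8pos.

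Other genes of DNA repair were read beside the 34. Of 49 further recombination and Fanconi genes, 28 were higher and 14 lower in Div8neg than in Div0, and 21 higher and 11 lower in Div8pos than in Div8neg. These are 57.1% and 28.6% beside 35.3% and 35.7% of all genes, and 42.9% and 22.4% beside 36.7% and 35.4%. Exo1, the nuclease of long-range end trimming, was 3.06-fold (adjusted p = 7.72e-09) higher in Div8neg and 1.62-fold (adjusted p = 1.14e-05) higher again in Div8pos. Parpbp, which restrains recombination, was 3.04-fold (adjusted p = 5.07e-09) higher in Div8neg than in Div0. At CD138, Psmc3ip and Zswim7, which act in strand exchange, were 2.38-fold (adjusted p = 3.94e-08) and 2.20-fold (adjusted p = 0.000327) higher, and the helicase Recql5, which also restrains recombination, was 2.32-fold (adjusted p = 3.64e-10) lower. Of 20 checkpoint partners, 10 were higher and 4 lower in Div8neg than in Div0, 50% and 20% beside 35.3% and 35.7% of all genes. Clspn, the adaptor for CHK1, was 3.38-fold (adjusted p = 1.2e-10) higher, and the clamp gene Rad9b 3.81-fold (adjusted p = 1.24e-07) lower. Per cell, limma gave log2 -0.65 (adjusted p = 0.00785) for Recql5 at CD138 and log2 -0.18 (adjusted p = 0.366) for Rad9b over the whole course.

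Calls in the end-joining list were no more frequent than over all genes in the 2 comparisons given here. Of its 9 tested genes, 2 were higher and 2 lower in Div8neg than in Div0, and 3 higher and 3 lower in Div8pos than in Div8neg. That is 22.2% each way beside 35.3% and 35.7% of all genes, and 33.3% each way beside 36.7% and 35.4%. Xrcc6, a subunit of the Ku end-binding protein, was 1.71-fold (adjusted p = 4.81e-07) higher in Div8neg and 1.34-fold (adjusted p = 0.00014) higher again in Div8pos. Lig4, the ligase of end joining, was at 14.8 and 15.8 CPM in Div8neg and 47.6 and 44.7 in Div8pos, 3.02-fold (adjusted p = 4.81e-09) higher. Prkdc, the catalytic kinase of end joining, was not called in Div8neg against Div0 (log2 -0.06, adjusted p = 0.632) and was 2.19-fold (adjusted p = 6.78e-07) lower in Div8pos. Polm, a polymerase of end joining, was 1.91-fold (adjusted p = 1.58e-08) lower in Div8neg than in Div0. On the alternative route, Polq, its polymerase, was 2.91-fold (adjusted p = 4.75e-10) higher in Div8neg than in Div0 and 1.35-fold (adjusted p = 0.000119) higher in Div8pos than in Div8neg. Of 8 such genes 6 were higher and 1 lower in Div8neg than in Div0, beside 35.3% and 35.7% of all genes. Of 7 mismatch repair genes 5 were higher and 1 lower, beside the same shares of all genes. The lower one, Mlh3, was 1.69-fold (adjusted p = 6.76e-06) lower. Per cell the lower genes were at log2 -0.54 (adjusted p = 0.0254) for Prkdc at CD138, and at log2 0.73 (adjusted p = 0.00159) for Polm and log2 0.79 (adjusted p = 0.000452) for Mlh3 in Div8neg against Div0, so Polm and Mlh3 changed direction with the scale. For comparison, 16 of 17 S phase genes were higher in Div8neg than in Div0 with a median log2 of 1.40, beside 0.85 for the 34 genes and -0.01 for all genes.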

How the data were processed

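The authors deposited read counts per gene over exons of UCSC mm9 KnownGenes, counts per ERCC spike-in, FPKM values and mRNAs per cell, per the file headers and the deposited description. The deposited mRNAs per cell equal the deposited FPKM times 1 factor per library (0.139 to 0.769); spike-in counts ran from 113723 to 683173. Libraries were stranded, made with 11 PCR cycles and sequenced as 50 bp pairs, per the labels' protocols. Picard and R 3.2.2 appear in the submitters' processing notes. The aligner was not given in the sources used here, nor was the counter.

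Rows with no symbol (90, 0.05% to 0.094% of counts) were left out. Counts were tested with edgeR 4.0.16 (TMM, filterByExpr, quasi-likelihood) and log2(mRNAs per cell + 0.1) with limma 3.58.1, in R 4.3.3, each in 1 fit of 6 group means over 12 libraries, with Benjamini-Hochberg adjustment over 12026 genes; fold changes per cell understate low genes. The scripts were tested on simulated data. The alternatives were DESeq2 1.42.0, no filter, spike-in library sizes, pseudocounts of 0.01 and 1, host as a block, the 2 groups alone, and leaving out each library. Libraries with 1 host number came from the same animal, per the labels; deviations from group means correlated between same-host libraries at 0.007 to 0.358 over the 15 pairs of groups. Where nothing states separate donors, p-values measure the spread between these libraries only.

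The 34 genes, lists and tests were chosen with earlier results of these data known. Values in every library were given for a set of genes by role and for those called against the main direction, statistics for up to 5 genes per direction and comparison, and partner genes for the 3 largest changes per direction plus 5 anchors; those of Xrcc2 and Vrk2 were added after their values were seen. Exon overlaps are from GENCODE M21 (GRCm38) and give neighbours only. Over 10% of exon bases were shared in 7 of the 34 genes. Besides Rad54b, Fancl, Fanci and Fancf, these were Rad54l (15.4%, Lrrc41), Fanca (10.5%, Zfp276) and Fancc (16.4%, Gm16133), each overlapped on the other strand. Some genes of the lists and anchors are counted but not reported by name here. The bisulfite data of the study were not used here.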

Additional observations from a re-analysis of the deposited data

How the results depend on the processing

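With spike-in library sizes the genes called among the 34 in Div1 against Div0 were 33 rather than 14. Over all comparisons, 10 genes called lower had a positive log2 change with these sizes, Atm in more than 1 comparison. This counts the sign alone, whether or not the positive change was called. Atm was at 0.28 in Div5 against Div3 and Mus81 at 0.22 in Div8neg against Div5. In Div8pos against Div8neg they were Rad51c 0.17, Rad54b 0.13, Fance 0.25, Fancg 0.13 and Fancl 0.28. In Div8neg against Div0 they were Atm 1.48, Atr 1.34 and Fancc 1.34. The spike-in library sizes follow the spike-ins instead of the gene totals by construction. With host as a replicate block, fitted because same-numbered libraries share an animal, the count was 1 rather than 0 in Div3 against Div1; the block lost none of the calls among the 34 and changed no other count among them by over 1.5 times. Without the filter on low values, 1 gene rather than 26 was called per cell in Div5 against Div3; the cause was not tested.

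Leaving out 1 library each time gave, on the CPM scale, 7 to 16 genes called in Div1 against Div0, 0 to 0 in Div3 against Div1, 9 to 18 in Div5 against Div3, 17 to 21 in Div8neg against Div5, 17 to 21 in Div8pos against Div8neg and 25 to 28 in Div8neg against Div0. Per cell the ranges were 11 to 34, 0 to 0, 1 to 30, 9 to 29, 13 to 25 and 34 to 34 in the same order. A lone library was assumed to vary like the other groups. Over all genes the calls in Div1 against Div0 were 1124, beside 9826 with spike-in sizes and 1713 with the block, and in Div3 against Div1 411, beside 738 without the filter, 89 with spike-in sizes, 755 with the block and 178 with the 2 groups alone. In Div5 against Div3 they were 3196, beside 5495 with spike-in sizes. Per cell they were 62 in Div3 against Div1, beside 28 with a pseudocount of 1, 0 without the filter and 117 with the block, and 5190 in Div5 against Div3, beside 228 without the filter. With 2 libraries per group and few counts for Rad51b and Fancf, small changes of these genes were not detectable at this depth.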

Other observations

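Atm, Atr and Prkdc belong to 1 family of large kinases related to PI3 kinase, and the other members Mtor, Smg1 and Trrap were looked up after the fall of Atm was seen. In Div8pos against Div8neg, edgeR's log2 changes were -1.72 for Atm (adjusted p = 4.55e-11), -1.13 for Prkdc (adjusted p = 6.78e-07), -0.63 for Smg1 (adjusted p = 0.000321), -0.59 for Trrap (adjusted p = 2.32e-06), 0.02 for Mtor (adjusted p = 0.752) and 0.37 for Atr (adjusted p = 0.00921). Atr did not pass without Div8neg of host 197 (log2 0.30, adjusted p = 0.0756) or without Div8pos of host 197 (log2 0.35, adjusted p = 0.0522). Per cell, limma gave -1.12 for Atm (adjusted p = 7.91e-06) and -0.54 for Prkdc (adjusted p = 0.0254), while Smg1 (-0.08, adjusted p = 0.758) and Trrap (-0.05, adjusted p = 0.858) did not pass. Npat, the gene whose start lies beside that of Atm on the other strand, was at -0.11 (adjusted p = 0.162) in the same comparison.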
